A study of Mus musculus with 5 samples.

Results

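The polo-like kinases (PLK), salt-inducible kinases (SIK) and PIM kinases are small families of serine/threonine kinases whose cellular activity depends to a large extent on how much of their transcript is made. Members were chosen by gene symbol from the gene count tables of a study of hippocampal gene expression after seizures, and all 9 were found among the 55385 genes counted. They were Plk2, Plk3 and Plk5, Sik1, Sik2 and Sik3, and Pim1, Pim2 and Pim3, and all 9 were among the 19768 genes that passed the filter on low counts and were tested. Seizures were provoked with kainic acid, an agonist of ionotropic glutamate receptors that strongly excites hippocampal neurons, and total RNA of whole hippocampi was sequenced with a stranded kit. The question addressed here was how the transcripts of these kinases differed between untreated hippocampus and hippocampus at 3 time points after seizure onset.

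There were 5 libraries in 4 groups, all from male C57/bl6 mice of 3 months with no engineered allele named. The control group was 1 library of untreated mice. The other groups received kainic acid at 20 mg/kg by intraperitoneal injection and were killed 1 h (1 library), 4 h (2 libraries) or 8 h (1 library) after the onset of seizures. The sources used here do not state how many mice went into a library. The control was not injected with vehicle, so that kainic acid, the injection and the handling cannot be told apart, and per the study's methods only mice whose seizures reached continuous rearing with falls were used. The counts on genes were 19100374 in the control, 17744508 at 1 h, 18250114 and 19109204 in libraries 1 and 2 at 4 h, and 16612225 at 8 h. Because only the 4 h group was replicated, every p value below assumes that the single libraries vary as the 4 h pair does, and it is not known whether that pair reflects separate animals.

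Polo-like kinases are best known from the cell cycle, but in neurons Plk2 and Plk3 are activity-regulated genes, and the Plk2 protein phosphorylates the spine protein SPAR, encoded by Sipa1l1, and marks it for degradation, which weakens synapses after prolonged activity. Salt-inducible kinases belong to the AMPK-related family. They phosphorylate the CREB coactivators of the CRTC family and class IIa histone deacetylases, which are then retained in the cytoplasm, and they are themselves inhibited by protein kinase A, while Sik1 is also a transcriptional target of CREB. PIM kinases have no regulatory domain and are active once translated, so that their abundance, often driven by cytokine signalling through STAT factors, sets their activity.

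The labels were first checked against 7 genes that neuronal activity is known to induce (Fos, Fosb, Junb, Egr1, Arc, Npas4 and Nr4a1). Their summed level, in counts per 1000000 after TMM normalization (CPM), was 255 in the control, 5465 at 1 h, 3904 and 1167 in libraries 1 and 2 at 4 h, and 242 at 8 h. The sum was thus near that of the control at 8 h, and Arc, its most abundant gene, made up 928 of the 1167 CPM in library 2 at 4 h. The transcription factor Npas4 had 78, 12204, 2189, 93 and 90 counts in the same order of libraries. Fosb had 70, 6540, 4012, 1138 and 171 counts, Fos had 215, 17563, 8743, 1331 and 302, and Junb had 524, 9800, 2708, 718 and 308. Of the 7 markers, 7 were at least 2-fold above the control at 1 h, 7 in library 1 at 4 h, 3 in library 2 (Fos, Fosb and Arc) and 1 at 8 h. In library 2 Npas4 (4.92 CPM), Egr1 (30.9) and Nr4a1 (34.6) were near their control levels of 3.92, 29.2 and 33.8.

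The libraries of the 4 h pair stood apart from each other. All 7 activity markers were higher in library 1 than in library 2, by a median of 4.24-fold and between 2.79-fold and 26.4-fold. The share of reads that fell on no gene was 33.1% in library 1 and 25.3% in library 2, and the control, 1 h and 8 h libraries had 24.7%, 29.0% and 30.9%. The 5 choroid plexus markers, led by the transthyretin gene Ttr, summed to 29.0 CPM in library 1 and to 4248 in library 2, while the control, 1 h and 8 h libraries had 3977, 1679 and 3090. The 4 markers of the neighbouring thalamus, led by Prkcd, summed to 259 and 99.5 CPM in libraries 1 and 2 and to 40.2, 43.0 and 33.7 in the other libraries. Library 1 was thus nearly without choroid plexus transcripts, with 3 counts of Kcne2 and 7 of Folr1 but no marker at 0, and it held the highest level of the thalamus list. All 5 blood markers were higher in library 1 than in library 2, at ratios from 1.515 to 2.086. All 5 oligodendrocyte markers were lower in library 1, at ratios from 0.7035 to 0.7853. What part these differences had in the values of the kinases was not tested. The levels of each kinase are therefore given for both libraries, while medians and counts of calls at 4 h come from the fit to both.

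Markers that define the tissue were present in all 5 libraries. The 5 markers of hippocampal excitatory neurons, led by the glutamate transporter gene Slc17a7, summed to 975, 942, 880, 945 and 964 CPM in the control, at 1 h, in libraries 1 and 2 at 4 h and at 8 h. The interneuron markers, led by Gad1, summed to 480, 542, 815, 655 and 490 CPM, and the astrocyte markers, led by Slc1a3, to 1117, 1189, 1714, 1557 and 1454 CPM. Genes within these lists differed from their sums. In the same order of libraries Prox1 had 60.0, 67.2, 172, 120 and 77.0 CPM, and Neurod2 had 71.1, 67.1, 43.4, 76.4 and 140. Pvalb was highest at 1 h, at 28.6 CPM. Gja1 had 195 CPM in the control, 194 and 202 in libraries 1 and 2 at 4 h, and 98.6 at 8 h. Among the microglia markers P2ry12 had 31.9, 29.7, 13.9, 17.8 and 20.8 CPM in the 5 libraries. These 5 genes were named after their values were seen. Of the astrocyte markers, 1, the intermediate filament gene Gfap, was at least 2-fold above the control in both 4 h libraries and at 8 h. Sums for oligodendrocytes (led by Mbp) were between 2567 and 4155 CPM, for their precursors (Pdgfra) between 87.5 and 118, for microglia (Csf1r) between 136 and 170, and for endothelium and pericytes (Flt1) between 92.8 and 132. Blood markers (Hbb-bs) summed to between 113 and 237 CPM, and markers of infiltrating leukocytes (Ptprc) to between 4.57 and 7.64 CPM, with Cd3e at 0 in all libraries but the 1 h library, where it had 1 count. In such bulk tissue, fewer cells of a type and less RNA per cell cannot be told apart.

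**Figure D1:**
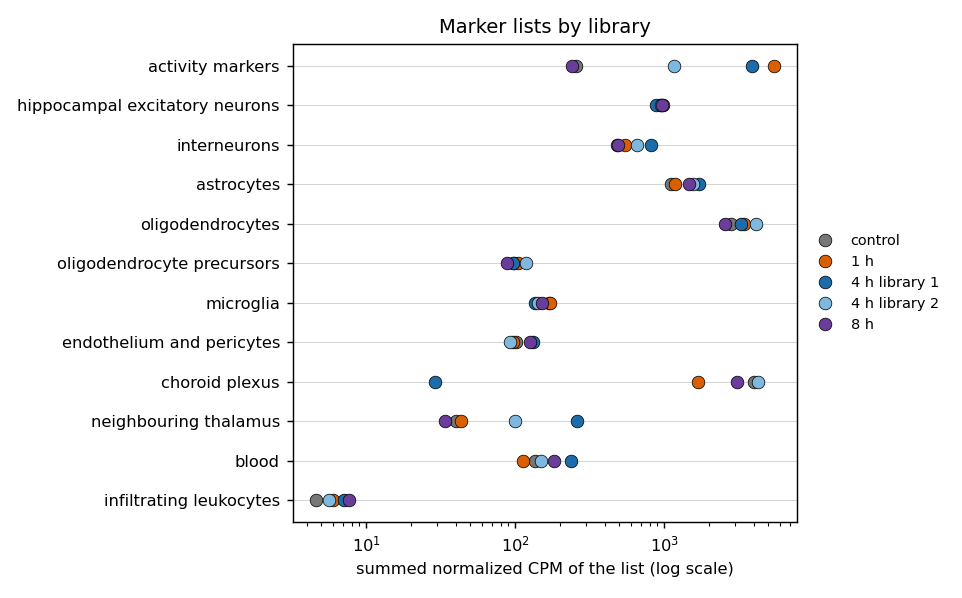
Summed normalized CPM (x axis, log scale) of the 7 activity markers and of each list of cell type markers (rows) in the 5 libraries, with 1 point per library. The choroid plexus list stands at 29.0 CPM in library 1 of the 4 h group and at 1679 CPM or more in the others, and the activity markers lie between 242 CPM at 8 h and 5465 CPM at 1 h.

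At 1 h after seizure onset, 5 of the 9 kinases were at least 2-fold above the control (Plk2, Plk3, Sik1, Pim1 and Pim3) and 0 were at least 2-fold below it, where 4.14% of all genes tested were at least 2-fold higher and 2.53% at least 2-fold lower. At 4 h, 3 kinases were at least 2-fold higher in both libraries (Plk2, Sik1 and Pim1), against 3.91% of all genes, and 1 was at least 2-fold lower in both (Plk5), against 1.09%. At 8 h, 1 kinase was at least 2-fold higher (Pim1), against 5.24% of all genes, and 1 at least 2-fold lower (Plk5), against 2.47%. With library 1 of the 4 h group alone, the count of higher kinases was 6, since Plk3, Sik2 and Pim3 passed as well, and with library 2 alone it was 3. Of all genes tested, 10.6% and 5.33% were at least 2-fold higher in library 1 and in library 2, and 5.68% and 2.67% were at least 2-fold lower. Pim3 lay at the border of the rule, with a ratio to the control of 2.0 in library 2 before the prior count of 2 was added. The median log2 fold change of the 9 kinases was 1.85, 1.40 and 0.17 at 1, 4 and 8 h, beside medians of 0.00 (-0.005), 0.01 and 0.01 over all genes tested. At 4 h it was 0.73 without library 1 and 1.71 without library 2, values chosen after seeing the data. The 3 comparisons share the same control library and are not independent.

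The replicated test made few calls in this design. With edgeR's quasi-likelihood test, 0 of the 9 kinases had an adjusted p under 0.05 at 1, 4 or 8 h, where 0% of all genes were called at 1 h, 0.00506% at 4 h (1 gene, none of the 9) and 0% at 8 h. At an unadjusted p under 0.05 the same test counted 5, 7 and 1 of the kinases, beside 2.42%, 11.6% and 4.51% of all genes. DESeq2 called 2 kinases at 1 h (Plk2 and Pim3), 3 at 4 h (Plk2, Pim1 and Pim3) and 0 at 8 h, beside 0.248%, 1.18% and 0.162% of all genes, and limma-voom called 0 kinases at each time point. Between time points, edgeR called 0 kinases from 1 h to 4 h, with 0.00506% of all genes called, and 0 from 4 h to 8 h, with 0% called. At an unadjusted p under 0.05 it counted 2 and 6 kinases, beside 7.94% and 8.73% of all genes, while DESeq2 called 0 and 1, beside 0.521% and 0.668%, and limma-voom 0 and 0. These counts depend on the settings. In edgeR with library size alone, 3, 4 and 0 kinases were called at 1, 4 and 8 h, beside 0.288%, 1.2% and 0.111% of all genes, and 0 and 2 between time points, beside 0.339% and 0.607%. Without the filter on low counts 6, 8 and 2 were called, beside 0.871%, 3.97% and 0.852% of 32732 genes, and 3 and 6 between time points, beside 2.21% and 2.92%. The differences described below did not pass the adjusted threshold in edgeR with the main settings.

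**Figure D2:**
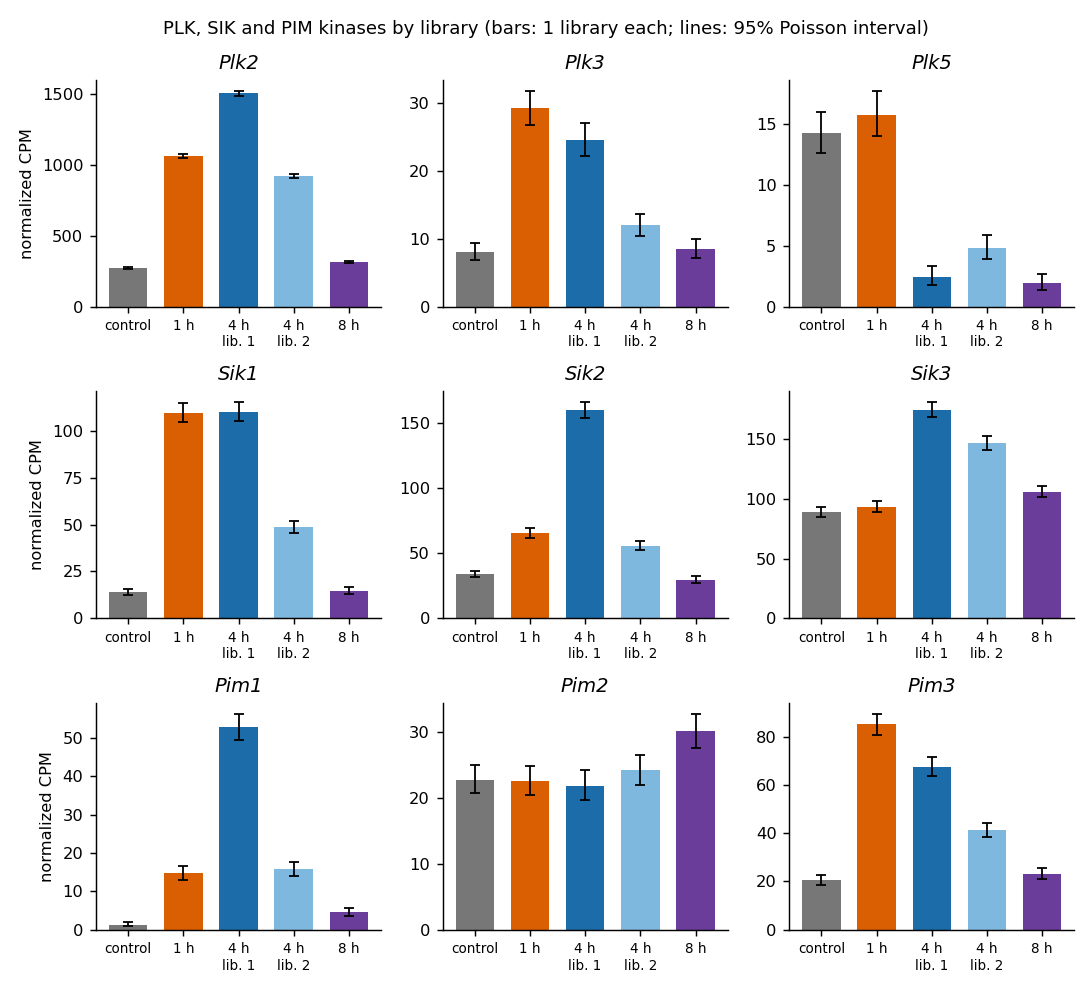
Normalized CPM (y axis, linear, each panel with its own scale) of the 9 kinases in the 5 libraries, with 1 bar per library and lines for the exact 95% Poisson interval of the count, which covers counting error only. Plk2 stands between 919 and 1502 CPM at 1 and 4 h and at 272 and 316 CPM in the control and at 8 h, while Plk5 has its lowest bars at 4 and 8 h.

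Among the polo-like kinases, Plk2 (ENSMUSG00000021701.8; chr13:110395046-110400844, plus strand, GRCm38) had 272 CPM in the control, 1062 at 1 h, 1502 and 919 in libraries 1 and 2 at 4 h, and 316 at 8 h. The 1 h and 4 h libraries were all above the control and the 8 h library, and the 8 h value stood slightly above the control. The ratio to the control was 3.90 at 1 h (95% interval 3.79 to 4.02), 5.52 and 3.37 in libraries 1 and 2 at 4 h, and 1.16 at 8 h (1.12 to 1.20). These intervals are exact binomial ones for the pair of counts and cover counting error only, since reads without molecular identifiers are not independent molecules. The log2 fold change was 1.96 ± 0.37 (standard error, SE) at 1 h and 2.15 ± 0.34 at 4 h, with adjusted p values of 1 and 0.245 in edgeR and of 0.000242 and 5.9e-08 in DESeq2. From 4 h to 8 h it was -1.94 ± 0.34, with an adjusted p of 0.463 in edgeR and 6.1e-06 in DESeq2. This was -1.54 without library 1 and -2.25 without library 2. The comparison of 4 h with 1 h changed its sign with the library used, from 0.19 with both to -0.21 with library 1 left out, so that no order of the 1 h and 4 h levels follows for Plk2.

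Plk3 (ENSMUSG00000028680.14; chr4:117128655-117133963, minus strand), a stress-responsive relative of Plk2, had 8.04 CPM in the control, 29.2 at 1 h, 24.6 and 12.0 in libraries 1 and 2 at 4 h, and 8.44 at 8 h. Its highest value was at 1 h, with a counting interval that overlapped that of library 1 at 4 h. From 1 h to 4 h the log2 fold change was -0.67 ± 0.44 (SE), with an adjusted p of 0.726 in edgeR. The 8 h value was within the counting interval of the control. Library 2 at 4 h stood at 1.49 times the control (95% interval 1.21 to 1.84) and library 1 at 3.06 times (2.54 to 3.69). On the log2 scale the fold change was 1.85 ± 0.54 (SE) at 1 h and 1.17 ± 0.48 at 4 h, with adjusted p values of 1 and 0.434 in edgeR. The latter was 0.57 without library 1 and 1.60 without library 2. Of the exon bases of Plk3, 3.32% lie under exons of Tctex1d4 on the opposite strand, which had 14, 11, 6, 24 and 7 counts in the 5 libraries. The strand setting of the counting is not given in the sources used here, so that it is not known how reads in such shared bases were counted. Reads that matched several genes were left out.

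Plk5 (ENSMUSG00000035486.14; chr10:80356459-80365489, plus strand), a polo-like protein that is expressed mainly in brain and has little or no kinase activity, went the other way. It had 14.2 CPM in the control, 15.8 at 1 h, 2.43 and 4.81 in libraries 1 and 2 at 4 h, and 1.94 at 8 h, from 283, 277, 41, 91 and 34 counts. The control and the 1 h library lay together, and all 3 later libraries lay below both with no overlap of their counting intervals. Relative to the control, the ratio was 1.11 at 1 h (95% interval 0.935 to 1.31), 0.171 (0.120 to 0.238) and 0.338 (0.264 to 0.430) in libraries 1 and 2 at 4 h, and 0.136 at 8 h (0.0926 to 0.195). Its log2 fold change was -1.94 ± 0.44 (SE) at 4 h and -2.81 ± 0.58 at 8 h, with adjusted p values of 0.288 and 0.882 in edgeR and of 0.116 and 0.0992 in DESeq2. At 8 h this was the 11th lowest value among the 19768 genes tested, and at 4 h the 19th lowest. From 1 h to 4 h the log2 fold change was -2.08 ± 0.44, with an adjusted p of 0.453 in edgeR. It was -1.69 without library 1 and -2.64 without library 2. Within the 4 h pair Plk5 was lower in library 1 than in library 2, at a ratio of 0.506 (0.341 to 0.739).

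Because 5 of the kinases were high together at 1 h (Plk2, Plk3, Sik1, Pim1 and Pim3), the sequence before the start of each gene was read for motifs of factors that act in activity-dependent transcription. The RefSeq promoter table (GRCm38.p6) held 8 of the 9 kinases, with 9 start sites, and did not list Sik1. Motif positions below are counted from these RefSeq starts, which for Plk2, Pim1, Pim2 and Pim3 differ from the starts in the coordinates given with each gene. The 250 bases before each start were searched on both strands for the full cAMP response element (TGACGTCA), its half-site (TGACG, which also lies inside the full element), the AP-1 site (TGANTCA), the EGR site (GCGNGGGCG), the STAT site (TTCNNNGAA) and the CArG box of serum response factor. Of the 32851 promoter windows of the same length in the table, these motifs were found in 1.55%, 17.8%, 6.75%, 4.70%, 7.02% and 1.47%. The full element was found in Plk2, from 62 to 55 bases before the start, and the half-site in Plk3 (at 132 and 63 bases) and Sik3 (at 133, 116 and 57 bases). The AP-1, STAT and CArG letters were not in the windows of these kinases, and no motif was found for Plk5, Pim2 or either start of Pim1. The EGR site was found in Sik2 (at 27 bases) and Pim3 (at 56 and 24 bases). Of the kinases high at 1 h, Plk2, Plk3 and Pim3 thus had a match, Pim1 had none and Sik1 could not be searched. Of the other kinases, Sik2 and Sik3 had a match, and Plk5 and Pim2 had none. What part the motifs had in these levels was not tested. A match is a description of the letters and not evidence of a bound site. The windows of Plk2 (chr13:110394794-110395043, plus strand) and Plk3 (chr4:117133964-117134213, minus strand) are printed 5′ to 3′ on the strand of the gene, ending just before the start, with the full element or the half-sites in capitals.
Plk2: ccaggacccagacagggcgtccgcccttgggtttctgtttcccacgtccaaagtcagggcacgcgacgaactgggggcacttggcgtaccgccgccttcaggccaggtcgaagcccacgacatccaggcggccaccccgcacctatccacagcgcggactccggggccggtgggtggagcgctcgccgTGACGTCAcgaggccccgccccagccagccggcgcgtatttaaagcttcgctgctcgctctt
Plk3: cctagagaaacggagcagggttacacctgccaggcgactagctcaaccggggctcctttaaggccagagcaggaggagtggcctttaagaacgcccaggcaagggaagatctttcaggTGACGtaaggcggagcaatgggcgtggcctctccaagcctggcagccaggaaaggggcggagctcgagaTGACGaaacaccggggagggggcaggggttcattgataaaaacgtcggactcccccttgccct

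Compared per length, Plk2 was by far the most abundant of the 9 transcripts. In the control it had 60.6 CPM per kilobase of exon, followed by Sik3 (9.53), Pim3 (8.47), Pim2 (8.13), Plk5 (5.31), Sik2 (3.56), Plk3 (3.18), Sik1 (2.69) and Pim1 (0.404). The counting intervals of Sik3 and Pim3, of Pim3 and Pim2, of Sik2 and Plk3 and of Plk3 and Sik1 overlapped in this order, so that these neighbours were not separated at this depth. At 1 h the order after Plk2 (236 CPM per kilobase) was Pim3 (35.0), Sik1 (21.4), Plk3 (11.5), Sik3 (10.1), Pim2 (8.06), Sik2 (6.85), Plk5 (5.89) and Pim1 (4.38), with overlapping intervals of Sik2 and Plk5. Pim3 and Sik1 were above Sik3 at 1 h, whereas in the control Sik3 was above Sik1 and overlapped Pim3. At 8 h Plk2 (70.2), Sik3 (11.4), Pim2 (10.7) and Pim3 (9.52) stood at the top. The intervals of Sik3 and Pim2 overlapped, as did those of Pim2 and Pim3, and Plk5 (0.724) was last. At 4 h Plk2 (334 and 204 in libraries 1 and 2) and Pim3 (27.9 and 16.9) led in both libraries, with an interval of Pim3 that overlapped that of Sik3 (15.8) in library 2, and Plk5 (0.909 and 1.80) was last in both. Pim1 stood at 15.7 and 4.70 CPM per kilobase in these libraries, above Plk3 in the former, and with an overlapping interval in the latter.

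**Figure D3:**
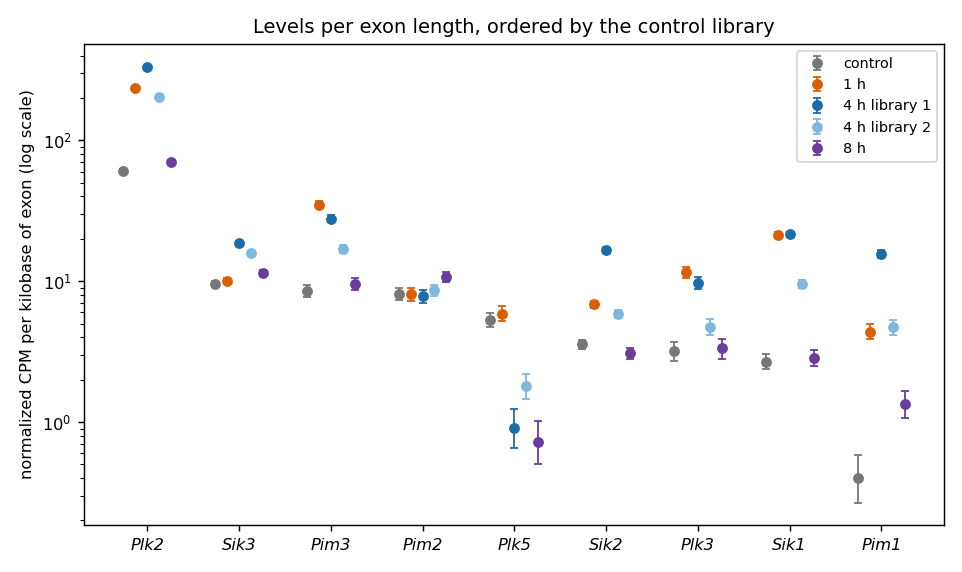
Normalized CPM per kilobase of exon (y axis, log scale) of the 9 kinases, ordered by their level in the control, in the 5 libraries, with 1 point per library and lines for the exact 95% Poisson interval of the count. Plk2 is the highest in each library, at 60.6 in the control and 334 in library 1 of the 4 h group, and the place of Pim1 moves from 0.404 in the control to 15.7 in that library.

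Of the salt-inducible kinases, Sik1 (ENSMUSG00000024042.7; chr17:31844250-31855804, minus strand), whose own promoter responds to CREB, had 13.8 CPM in the control, 110 at 1 h, 110.5 and 48.9 in libraries 1 and 2 at 4 h, and 14.7 at 8 h. The 1 h library and library 1 at 4 h were alike, library 2 at 4 h lay between them and the control, and the 8 h library overlapped the control. Relative to the control, the ratio of Sik1 was 7.96 at 1 h (95% interval 7.01 to 9.06), 8.00 (7.04 to 9.11) and 3.54 (3.09 to 4.07) in libraries 1 and 2 at 4 h, and 1.06 at 8 h (0.891 to 1.26). Its log2 fold change was 2.98 ± 0.58 (SE) at 1 h and 2.52 ± 0.54 at 4 h, with adjusted p values of 1 and 0.276 in edgeR and of 0.842 and 0.222 in DESeq2. Without library 1 the 4 h value was 1.82, and without library 2 it was 2.99. From 4 h to 8 h the log2 fold change was -2.43 ± 0.54, with an adjusted p of 0.463 in edgeR. The value was -1.73 without library 1 and -2.90 without library 2.

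Sik2 (ENSMUSG00000037112.16; chr9:50892801-51009073, minus strand), a kinase known to restrain CRTC1-dependent transcription in neurons, had 33.9 CPM in the control, 65.4 at 1 h, 160 and 55.7 in libraries 1 and 2 at 4 h, and 29.4 at 8 h. It was higher than the control at 1 h and in both 4 h libraries, but library 1 at 4 h stood 2.88-fold (95% interval 2.68 to 3.09) above library 2, and library 2 lay below the 1 h library. The ratio to the control was 1.93 at 1 h (1.75 to 2.12), 4.72 (4.34 to 5.15) and 1.64 (1.49 to 1.81) at 4 h, and 0.868 at 8 h (0.772 to 0.974). At 4 h its log2 fold change was 1.67 ± 0.63 (SE), with an adjusted p of 0.415 in edgeR, and it was 0.71 without library 1 and 2.24 without library 2. Between 1 h and 4 h the sign depended on the library, with 0.72 for both and -0.23 without library 1. Exons of Ppp2r1b on the opposite strand cover 15.0% of the exon bases of Sik2, and Ppp2r1b had 336, 316, 311, 311 and 265 counts in the 5 libraries, against 675, 1149, 2697, 1053 and 516 counts of Sik2. What part reads of Ppp2r1b had in the counts of Sik2 was not tested.

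Sik3 (ENSMUSG00000034135.15; chr9:46012820-46224194, plus strand), the longest-spanning of the 9 genes and a kinase known for its part in sleep need, had 88.8 CPM in the control, 93.6 at 1 h, 175 and 147 in libraries 1 and 2 at 4 h, and 106 at 8 h. The 4 h libraries were both above the other 3, and the difference between them was small, at a ratio of 1.19 (95% interval 1.13 to 1.25). The ratio to the control was 1.05 at 1 h (0.986 to 1.13), 1.97 (1.86 to 2.09) and 1.65 (1.56 to 1.76) at 4 h, and 1.20 at 8 h (1.12 to 1.28). Fold changes on the log2 scale were 0.86 ± 0.19 (SE) at 4 h and 0.78 ± 0.19 from 1 h to 4 h, with adjusted p values of 0.288 and 0.497 in edgeR. The change from 1 h to 4 h was 0.65 without library 1 and 0.90 without library 2. From 4 h to 8 h it was -0.60 ± 0.19, with an adjusted p of 0.523 in edgeR, and -0.47 and -0.72 with library 1 or library 2 left out. Sik3 thus had its highest levels at 4 h, without a difference at 1 h beyond counting error, a time course that Sik1 did not have, although the difference between these genes was not tested. In the windows before the starts of Sik3 (chr9:46012570-46012819, plus strand) and Sik2 (chr9:51009074-51009323, minus strand), the capitals mark the 3 half-sites of the cAMP response element in Sik3 and the EGR site, from 27 to 19 bases before the start and read here from the other strand, in Sik2.
Sik3: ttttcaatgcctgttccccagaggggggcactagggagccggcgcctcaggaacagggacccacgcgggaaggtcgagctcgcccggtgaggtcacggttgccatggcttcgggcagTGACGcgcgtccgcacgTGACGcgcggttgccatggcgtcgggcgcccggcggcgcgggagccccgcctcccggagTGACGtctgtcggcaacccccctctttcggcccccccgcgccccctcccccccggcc
Sik2: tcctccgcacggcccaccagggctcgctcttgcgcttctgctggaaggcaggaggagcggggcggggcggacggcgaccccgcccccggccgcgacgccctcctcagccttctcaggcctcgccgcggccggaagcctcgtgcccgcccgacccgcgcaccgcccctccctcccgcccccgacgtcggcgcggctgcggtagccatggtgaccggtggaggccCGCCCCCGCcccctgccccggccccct

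Of the PIM kinases, Pim1 (ENSMUSG00000024014.8; chr17:29490753-29496112, plus strand), a growth and survival kinase induced by cytokines, had 1.36 CPM in the control, 14.7 at 1 h, 52.8 and 15.8 in libraries 1 and 2 at 4 h, and 4.50 at 8 h, from 27, 259, 889, 299 and 79 counts. All 4 libraries after kainic acid were above the control, with no overlap of their counting intervals, and library 1 at 4 h was the highest. Over the control, the ratio was 10.9 at 1 h (95% interval 7.29 to 16.8), 38.9 (26.6 to 59.4) and 11.7 (7.85 to 18.0) in libraries 1 and 2 at 4 h, and 3.32 at 8 h (2.12 to 5.35). In the fit over all libraries the log2 fold change of Pim1 at 1, 4 and 8 h was 3.34 ± 0.93 (SE), 4.55 ± 0.92 and 1.65 ± 0.93, with adjusted p values of 1, 0.261 and 1 in edgeR and of 1, 0.0189 and 1 in DESeq2. The 4 h value was the 15th highest among the 19768 genes tested, and it was 3.44 without library 1 and 5.17 without library 2. Library 2 at 4 h and the 1 h library did not differ beyond counting error, with a ratio of 1.07 (0.906 to 1.27). Exons of Gm26885 on the opposite strand cover 14.5% of the exon bases of Pim1, and Gm26885 had 4, 4, 10, 10 and 11 counts.

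Pim2 (ENSMUSG00000031155.16; chrX:7878262-7883432, plus strand), a close relative known from lymphoid cells, had 22.7 CPM in the control, 22.5 at 1 h, 21.8 and 24.2 in libraries 1 and 2 at 4 h, and 30.1 at 8 h. The first 4 of these libraries overlapped in their counting intervals, and the 8 h library lay above the control, at a ratio of 1.32 (95% interval 1.17 to 1.5). Its log2 fold change at 1, 4 and 8 h was -0.01 ± 0.26 (SE), 0.02 ± 0.23 and 0.40 ± 0.26, with adjusted p values of 1, 0.983 and 1 in edgeR. The sign of the 4 h value turned with the scaling, to -0.10 with library size alone, and with library 2 left out, to -0.06.

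Pim3 (ENSMUSG00000035828.11; chr15:88862186-88865726, plus strand), a relative known as a depolarization-induced gene, had 20.6 CPM in the control, 85.0 at 1 h, 67.6 and 41.2 in libraries 1 and 2 at 4 h, and 23.1 at 8 h. Its highest value was in the single 1 h library. Both 4 h libraries lay between the 1 h library and the control, and the 8 h library overlapped the control. From 1 h to 4 h the log2 fold change was -0.65 ± 0.31 (SE), with an adjusted p of 0.672 in edgeR. The ratio to the control was 4.14 at 1 h (95% interval 3.71 to 4.63), 3.29 (2.94 to 3.69) and 2.0 (1.77 to 2.26) at 4 h, and 1.12 at 8 h (0.977 to 1.29). The log2 fold change was 2.04 ± 0.39 (SE) at 1 h and 1.40 ± 0.35 at 4 h, with adjusted p values of 1 and 0.319 in edgeR and of 0.00405 and 0.0298 in DESeq2. From 4 h to 8 h it was -1.23 ± 0.34, with an adjusted p of 0.476 in edgeR and 0.115 in DESeq2. This change was -0.83 without library 1 and -1.54 without library 2. The window before the RefSeq start of Pim3 (chr15:88861944-88862193, plus strand), whose last bases lie inside the gene coordinates given above, held the EGR site at 2 places, from 56 to 48 and from 24 to 16 bases before the start, which are read here from the other strand and set in capitals.
Pim3: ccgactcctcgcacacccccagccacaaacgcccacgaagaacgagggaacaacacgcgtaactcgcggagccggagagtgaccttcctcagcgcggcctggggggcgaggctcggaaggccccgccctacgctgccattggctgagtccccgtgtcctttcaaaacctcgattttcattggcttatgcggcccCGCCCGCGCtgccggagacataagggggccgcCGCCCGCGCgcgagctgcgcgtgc

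**Figure D4:**
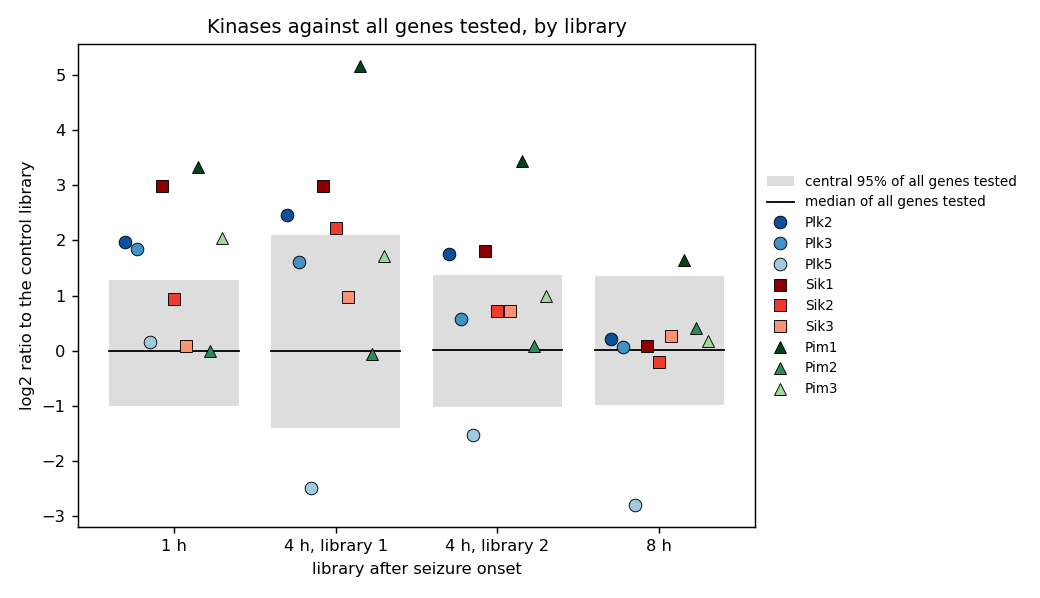
The log2 ratio to the control library (y axis, prior count of 2) of the 9 kinases in each library after kainic acid (x axis), with 1 point per kinase, grey areas for the central 95% of the 19768 genes tested and black lines for their median. In the 1 h library 5 of the 9 points lie outside the grey area, in libraries 1 and 2 at 4 h 5 and 4, and at 8 h 2, with Plk5 below it at 4 and 8 h.

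The contrast of the kinases between the 4 h libraries was set beside that of the marker lists. Of the 9 kinases, 7 were higher in library 1 than in library 2, with a median ratio of 1.64 and a range from 0.506 (Plk5) to 3.34 (Pim1). The ratio was 2.88 for Sik2, 2.26 for Sik1, 2.05 for Plk3, 1.64 for Pim3, 1.64 for Plk2, 1.19 for Sik3 and 0.902 for Pim2. Pim1 and Sik2, the kinases with the largest ratios, lay within the range of the activity markers (2.79 to 26.4), and the other 7 lay below it. The 4 thalamus markers (2.264 to 3.127) and the 5 blood markers (1.515 to 2.086) were also all higher in library 1. All 5 oligodendrocyte and all 5 choroid plexus markers were lower in library 1. Which of these differences went with the ratios of the kinases was not tested. Over all 19768 genes tested the median log2 ratio of library 1 to library 2 was 0.01, with 10090 of them higher in library 1. Over the 773 genes at least 2-fold above the control in both libraries it was 0.54, with 636 of them higher in library 1. Plk2, Sik1 and Pim1, the kinases among these 773 genes, were thus not alone in being higher in library 1.

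**Figure D5:**
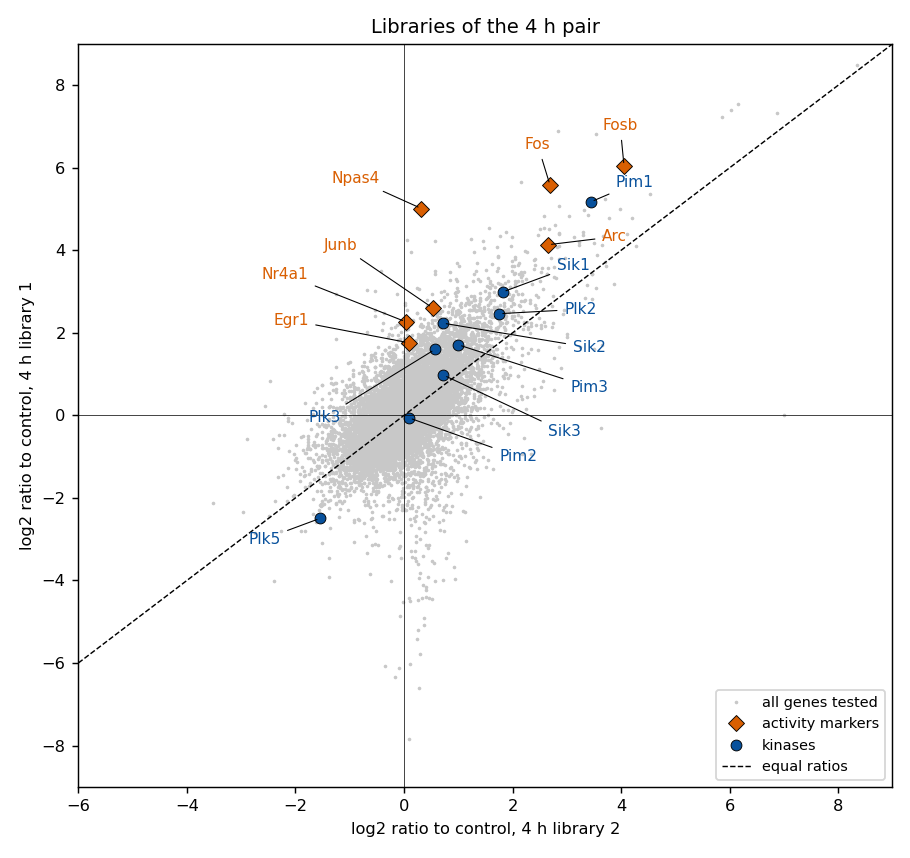
The log2 ratio to the control library in library 1 (y axis) against library 2 (x axis) of the 4 h group, with 1 grey dot per gene tested, diamonds for the 7 activity markers, circles for the 9 kinases and a dashed line where both ratios are equal. The activity markers lie above the line, as do 7 of the 9 kinases, and Pim2 and Plk5 lie below it.

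By the root mean square difference of the log2 ratios to the control over the 4 libraries after kainic acid, the genes nearest to each kinase with a log2 ratio of at least 1 in size were named. The nearest to Plk2 were Spry2 (0.18), Fam107b (0.23) and Gm45516 (0.25), and the nearest to Plk3 were Gm45177 (0.07), Lncpint (0.17) and Frmd6 (0.17). Sik1 was nearest to Fosl2 (0.28), Ifrd1 (0.29) and Errfi1 (0.32), and Sik2 to Gm3160 (0.09), Dipk2a (0.10) and Edn1 (0.17). These neighbours of Sik1 include Fosl2, which encodes a subunit of the AP-1 factor. The nearest to Pim1 were Gadd45b (0.48), Ptgs2 (0.51) and Csrnp1 (0.53), the nearest to Pim3 were Gmppb (0.19), Gm13349 (0.22) and B230216N24Rik (0.24), and the nearest to Plk5 were Akr1c14 (0.46), Rtp1 (0.51) and Ntf3 (0.56). Plk5 and Pim1 had no gene as near as the other kinases had. The distance is not scaled to the size of the ratios, however. Pim1 at 4 h (15th highest) and Plk5 at 8 h (11th lowest) lay at the ends of all genes tested, where few genes can be near. Among the kinases themselves, the nearest pair was Plk3 and Pim3, at 0.25, and the farthest was Plk5 and Pim1, at 5.33. Sik3 and Pim2 had no log2 ratio of at least 1 in size, so that by the rule fixed beforehand no nearest genes are named for them, while the distances between kinases include both.

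Genes from 4 lists around the PLK and SIK families were also counted. Counts at 4 h are of genes past 2-fold in both libraries. At 1, 4 and 8 h, 4.14%, 3.91% and 5.24% of all genes tested were higher by this rule and 2.53%, 1.09% and 2.47% lower, so that a count of 0 in lists of 2 to 21 genes is near the background. Of the 2 remaining polo-like kinases, Plk1 and Plk4, 0 were past the 2-fold rule at any time point. The list of 10 PLK2 substrates and partners at synapses, which includes the SPAR gene Sipa1l1, had 0 genes past 2-fold in either direction at 1, 4 and 8 h, with medians of -0.02, -0.03 and -0.08 on the log2 scale. Of the 21 regulators and targets of the salt-inducible kinases (protein kinase A subunits, the LKB1 complex, CRTC coactivators and class IIa histone deacetylases), 0 passed in either direction at any time, with medians of 0.00 (0.001), -0.07 and -0.02. Of 12 other AMPK-related kinases, 11 were tested, 0 passed, and the medians were 0.07, -0.05 and 0.00. With library 1 alone at 4 h, a count chosen after seeing the data, 1 of the 21 (Prkar2a, at 51.9 CPM in the control and 266 and 88.5 in libraries 1 and 2) was at least 2-fold higher and 1 of the 11 (Nuak1) at least 2-fold lower, beside 10.6% and 5.68% of all genes. With library 2 alone 0 genes of these lists passed, beside 5.33% and 2.67%. The medians lie close to those of all genes tested (-0.005, 0.01 and 0.01). The 4 h medians were also taken without library 1 and without library 2, again after seeing the data. They were -0.11 and -0.01 for the PLK2 list, and -0.10 and -0.09 for the regulators and targets of the salt-inducible kinases. For the other AMPK-related kinases they were -0.17 and 0.01, so that the sign changed. In edgeR 0 genes of these 4 lists had an adjusted p under 0.05, and at an unadjusted p under 0.05 there were 0 at 1 h, 1, 4 and 3 of the last 3 lists at 4 h and 0 at 8 h, beside 2.42%, 11.6% and 4.51% of all genes. DESeq2 and limma-voom called 0 of them as well.

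Of the 15 regulators and targets of the PIM kinases, 3 were at least 2-fold above the control at 1 h, 4 in both libraries at 4 h and 2 at 8 h, 0 were at least 2-fold lower, and the medians were 0.23, 0.67 and 0.14 on the log2 scale. Of all genes tested, 4.14%, 3.91% and 5.24% were at least 2-fold higher. With library 1 or library 2 alone at 4 h, counts chosen after seeing the data, 6 and 4 of the 15 were higher, beside 10.6% and 5.33% of all genes, and the median at 4 h was 0.49 and 0.45. In edgeR 0 of them had an adjusted p under 0.05 at any time, while 2, 6 and 1 had an unadjusted p under 0.05 at 1, 4 and 8 h, beside 2.42%, 11.6% and 4.51% of all genes. DESeq2 called 1, 1 and 0, beside 0.248%, 1.18% and 0.162%, and limma-voom called 0. The cell cycle inhibitor gene Cdkn1a, whose product is a PIM substrate, had 54, 256, 874, 500 and 159 counts in the 5 libraries. Socs3, a feedback inhibitor of cytokine signalling, had 31, 60, 655, 91 and 138 counts, with a value in library 1 at 4 h that was 8.08 times that in library 2. Both genes were above the control in every library after kainic acid. The transcription factor gene Myc had 37, 84, 129, 72 and 40 counts, and Eif4ebp1, a repressor of translation, had 24, 27, 53, 54 and 32.

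Of 9 other kinases and pseudokinases controlled at the level of their transcripts, 4 were at least 2-fold higher at 1 h, 3 in both libraries at 4 h and 3 at 8 h, and 0 were at least 2-fold lower, with medians of 0.93, 0.92 and -0.04. The shares of all genes at least 2-fold higher were 4.14%, 3.91% and 5.24%, and with either 4 h library alone 4 of the 9 were higher, beside 10.6% and 5.33% of all genes, again a count chosen after seeing the data. In edgeR 0 had an adjusted p under 0.05, and 3, 4 and 2 had an unadjusted p under 0.05 at 1, 4 and 8 h, beside 2.42%, 11.6% and 4.51% of all genes. DESeq2 called 2, 3 and 1, beside 0.248%, 1.18% and 0.162%, and limma-voom 0. Trib1, a pseudokinase that guides ubiquitin ligases, had 111, 880, 629, 240 and 114 counts, and Sgk1, the serum and glucocorticoid regulated kinase, had 2360, 6975, 7012, 6492 and 2016. Both were high at 1 h and 4 h and close to the control at 8 h, as Plk2, Sik1 and Pim3 were. Stk40, a pseudokinase related to the Tribbles proteins, had 348, 898, 2147, 1325 and 976 counts and was above the control in all libraries after kainic acid, as was Pim1. Trib2 had 911, 704, 447, 759 and 2809 counts, with its highest value at 8 h, where its log2 fold change was 1.80.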

How the data were processed

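The deposited counts are whole numbers of reads per gene, made by the authors from total RNA libraries with STAR 2.5.1b and HTSeq on GRCm38.p4, per the submitters' processing notes, without normalization. The sources used here give neither annotation release nor strand setting. Summary lines for reads without a gene (between 24.7% and 33.1%), with several genes or with several alignments were left out. The test was edgeR 4.0.16 under R 4.3.3 (filterByExpr, TMM, quasi-likelihood F test over 19768 genes in all 5 libraries, 1 residual degree of freedom, Benjamini-Hochberg adjustment, log2 fold changes with a prior count of 2). DESeq2 1.42.0 and limma 3.58.1 were alternatives. The code was tested on simulated data. SE values were derived from the coefficient and the F statistic. Gene positions and exon lengths came from GENCODE M21 (GRCm38), which held 55144 of the 55385 identifiers and all 9 kinases, and promoters from RefSeq. The kinases and gene lists were chosen with earlier results of these data known. All 9 kinases are described, from the other lists at most 4 genes past the 2-fold rule, largest first, and the 3 nearest genes of each kinase that differed. Prkar2a, Nuak1, Crtc1, Prkar2b and Pkia are named outside this rule. Tables were made with Python 3.11.15, pandas and SciPy, figures with matplotlib 3.10.9.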

Additional observations from a re-analysis of the deposited data

How the results depend on the processing

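The alternatives were run on the counts of genes called, on the 45 log2 fold changes of the kinases (9 kinases in 5 comparisons, under 10 settings) and on the counts past 2-fold. In the order 1 h, 4 h and 8 h against the control, 4 h against 1 h and 8 h against 4 h, edgeR called 0, 1, 0, 1 and 0 genes at an adjusted p under 0.05 and 0 kinases in each. With library size alone the counts were 57, 237, 22, 67 and 120 genes and 3, 4, 0, 0 and 2 kinases, and with DESeq2 they were 49, 233, 32, 103 and 132 genes and 2, 3, 0, 0 and 1 kinases. An assumed biological coefficient of variation of 0.2 gave 238, 916, 184, 513 and 660 genes and 5, 6, 1, 1 and 5 kinases, and one of 0.4 gave 40, 81, 12, 33 and 48 genes and 0, 1, 0, 0 and 0 kinases. Without a filter on low counts there were 285, 1300, 279, 725 and 957 genes and 6, 8, 2, 3 and 6 kinases. Median-of-ratios factors and limma-voom gave 0 genes and 0 kinases in each comparison. The cause of these differences was not tested. Over the alternatives with a test, the adjusted p of Plk2 at 4 h ranged from 6.8e-23 to 0.449, that of Pim1 at 4 h from 2.1e-27 to 0.406 and that of Pim3 at 1 h from 2.6e-10 to 1. The count of kinases at least 2-fold higher at 4 h was 3, and 6 with a threshold of 1.5-fold, between 3 and 6 when each 4 h library was left out, and 4 with median-of-ratios factors. No share of all genes was counted for the 1.5-fold threshold or for median-of-ratios factors. The counts of 6 and 4 under these settings thus stand without a background. In the lists of other pathway genes each 4 h library was left out in turn, an alternative chosen after seeing the data. The count at least 2-fold higher was then between 0 and 1 for the regulators and targets of the salt-inducible kinases (0 with both), and the count at least 2-fold lower was between 0 and 1 for the other AMPK-related kinases (0 with both). It was between 4 and 6 higher for the regulators and targets of the PIM kinases (4 with both) and 4 each time for the other kinases and pseudokinases (3 with both). The medians were also taken without library 1 and without library 2, again after seeing the data. The median log2 fold change of the 9 kinases was then 0.73 and 1.71 at 4 h against the control (1.40 with both), -0.23 and 0.01 from 1 h to 4 h (0.03 with both, so that its sign changed without library 1), and -0.92 and -1.54 from 4 h to 8 h (-1.23 with both). For the 9 kinases, the other counts past 2-fold stayed within 1.5 times their value under each setting run. Counts of the marker lists at 4 h moved more, as with the activity markers, of which 3 were higher in both libraries and 7 in library 1 alone. Of 450 alternative log2 fold changes, 443 had the same sign as the reported value and 7 had the other sign. Many of them could hardly change sign. The assumed coefficients, the prior count and the missing filter leave the ratio of the same counts nearly unchanged. Leaving out a 4 h library hardly touches the comparisons of 1 h and 8 h with the control. Of the 7, 2 came with library size alone, 2 without library 1 and 3 without library 2. From 1 h to 4 h, the values without library 1 and without library 2 were -0.21 and 0.50 for Plk2, -0.23 and 1.29 for Sik2, -1.17 and 0.01 for Sik1, and 0.10 and -0.05 for Pim2, and with library size alone Pim2 had -0.02. Pim2 at 4 h against the control had 0.09 without library 1, -0.06 without library 2 and -0.10 with library size alone. With a 4 h library left out no residual degree of freedom remained, so that these are values with no test. No paired analysis was possible because 3 of the 4 groups hold 1 library. Single libraries at 1 h, 8 h and in the control have no check by replicates, and Pim1 with 27 counts in the control and Plk5 with 34 at 8 h are the values that counting error limits most.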

Other observations

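Among the regulators of the salt-inducible kinases, Prkar2a, which encodes a regulatory subunit of protein kinase A, had 1032 counts in the control, 1079 at 1 h, 4482 and 1673 in libraries 1 and 2 at 4 h, and 894 at 8 h. It was named after its values were seen. Its ratio of library 1 to library 2 was 3.01, beside 2.88 for Sik2 and 2.264 to 3.127 for the 4 thalamus markers. What part the difference between the libraries had in its level was not tested. Its log2 fold change at 4 h was 1.77, with an adjusted p of 0.408 in edgeR. The other 3 genes of this list with an unadjusted p under 0.05 at 4 h were lower than the control in both libraries, with log2 fold changes of -0.73 for Crtc1, -0.67 for Prkar2b and -0.645 for Pkia, and adjusted p values of 0.323, 0.352 and 0.358.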
